A study of Mus musculus with 32 samples.

Results

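The cytosolic ribosomal protein genes code for the protein components of the ribosome that works in the cytosol. Members were taken by mouse gene symbol (Rpl or Rps with a number, plus Rplp0, Rplp1, Rplp2 and Rpsa), without annotated pseudogenes, and had to reach at least 10 counts in at least 8 libraries. Of 89 symbols that matched, 6 were pseudogenes and 5 of the 83 coding genes stayed under the minimum. That left 78 genes, 31 of the small and 47 of the large subunit, out of 55415 counted features. All 78 entered the tests, and 77 of them had at least 10 counts in all 32 libraries. Rps6 was the exception, with 10 counts or more in 20 libraries.

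The series measured RNA in striatum, the brain region most affected in Huntington disease, from 32 mice at 12 months of age. YAC128 mice, on a B6 background, carry the human huntingtin gene with an expanded CAG repeat on a yeast artificial chromosome. They received AON12.1 (8 mice), a scrambled antisense oligonucleotide (8 mice) or artificial cerebrospinal fluid, aCSF (8 mice), and wild-type (WT) littermates received aCSF (8 mice). All mice carried a cannula in the lateral ventricle and were injected 3 times with 10 µL, holding 500 µg oligonucleotide or aCSF alone, at about 6 months of age and again after 2 and 4 weeks. AON12.1 is an antisense oligonucleotide that the series title ties to the caspase-6 cleavage site of HTT. No WT mice with an oligonucleotide are among these groups, so the oligonucleotides are set only against YAC128 mice or against WT mice that had aCSF.

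A ribosome is built from a small subunit, which reads the mRNA, and a large subunit, which joins the amino acids. Each subunit holds ribosomal RNA and many proteins, mostly in a single copy each, and their genes are transcribed in nearly all cells. Most of their mRNAs begin with a C followed by an unbroken run of pyrimidines, the terminal oligopyrimidine tract, through which mTORC1 and La-related proteins control their translation.

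Start-site sequences are shown to see where such a tract lies. They cover both members that passed a test, and from a fixed list the stalk genes Rplp0 and Rplp2, Rpsa and Rps6. The stalk gene Rplp1 had no entry in the promoter table used. Each is the 30 bases around the RefSeq start site in GRCm38.p6, 5′ to 3′ on the gene's strand, and capitals mark runs of at least 8 bases that are all C or T.
Rps26 (chr10:128626492-128626521, minus strand): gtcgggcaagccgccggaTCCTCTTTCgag
Rpl4 (chr9:64173372-64173401, plus strand): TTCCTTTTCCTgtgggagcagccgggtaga
Rplp2 (chr7:141447636-141447665, plus strand): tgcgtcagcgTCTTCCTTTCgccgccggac
Rps6 (chr4:86857353-86857382, minus strand): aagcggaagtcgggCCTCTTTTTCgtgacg
Rplp0 (chr5:115559452-115559481, plus strand): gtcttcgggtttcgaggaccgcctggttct
Rpsa (chr9:120127751-120127780, plus strand): gtgggttatttaaggacgtcatttccggcc
Rps26, Rpl4, Rplp2 and Rps6 hold such a run. The windows have 15 bases on each side of the annotated start. In Rplp2 and Rps6 the run spans that start, in Rpl4 it lies wholly before it and in Rps26 wholly after it. In Rplp0 and Rpsa the longest run of C or T in this window was 5 bases. The promoter table held 58 of the 78 members, and 26 of those (44.8%) had a run of at least 8 on the gene's strand. By subunit these were 8 of 23 small subunit members (34.8%) and 18 of 35 large subunit members (51.4%). Over all 27025 genes in the table the share was 13.9%. A run in this window is a description of the letters at an annotated start and not a measured start of transcription.

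The libraries held 658934 to 1419313 counts in genes, with a mean of 958910. They came from an oligo-dT method that samples the 3′ part of polyadenylated RNA, so counts are not divided by gene length, and levels below are compared between groups for 1 gene and not between genes. A single feature without a mouse gene identifier followed the genotype labels, with 75 to 187 counts in the 24 YAC128 libraries and 0 to 6 in the 8 WT libraries. Markers of striatal projection neurons, the main neuron of this tissue, were detected for 11 of 11 genes in every group. Their summed level averaged 7802 ± 1428 CPM (counts scaled to libraries of equal size) with AON12.1, 6055 ± 1297 with the scrambled oligonucleotide, 5500 ± 1141 in YAC128 mice with aCSF and 7998 ± 1917 in WT mice (SD, n = 8 each). Counts outside any feature made up 23.8% ± 6.70 of a library's total with AON12.1, 22.1% ± 2.41 with the scrambled oligonucleotide, 25.7% ± 4.92 in YAC128 mice with aCSF and 19.5% ± 4.40 in WT mice (SD, n = 8 each). These are bulk samples, in which fewer cells of a type and less RNA per cell cannot be told apart.

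As a whole, ribosomal protein mRNA took up overlapping shares of the counts in the 4 groups. The 78 genes held 3.68% ± 0.394 of gene counts with AON12.1, 3.46% ± 0.323 with the scrambled oligonucleotide, 3.39% ± 0.212 in YAC128 mice with aCSF and 3.58% ± 0.286 in WT mice (SD, n = 8 each). Single libraries ran from 3.24% to 4.25% with AON12.1, from 3.11% to 4.04% with the scrambled oligonucleotide, from 3.02% to 3.66% in YAC128 mice with aCSF and from 3.10% to 3.92% in WT mice. The ranges of all 4 groups overlapped.

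The balance between the subunits overlapped between groups as well. Summed small subunit counts divided by summed large subunit counts gave 0.895 ± 0.0422 with AON12.1, 0.902 ± 0.0398 with the scrambled oligonucleotide, 0.869 ± 0.0506 in YAC128 mice with aCSF and 0.903 ± 0.0280 in WT mice (SD, n = 8 each). Much of each sum comes from few genes: the 8 members with the most counts held 47.2% of all member counts. Without the member with the most counts in each subunit, the ratio was 0.841 with AON12.1, 0.819 with the scrambled oligonucleotide, 0.797 in YAC128 mice with aCSF and 0.806 in WT mice. On a log2 scale that weights each member equally, the mean small subunit level minus the mean large subunit level was 0.03 ± 0.04 with AON12.1, 0.06 ± 0.07 with the scrambled oligonucleotide, 0.02 ± 0.06 in YAC128 mice with aCSF and 0.02 ± 0.05 in WT mice (SD, n = 8 each). No test was run on a score made from the members.

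**Figure D1:**
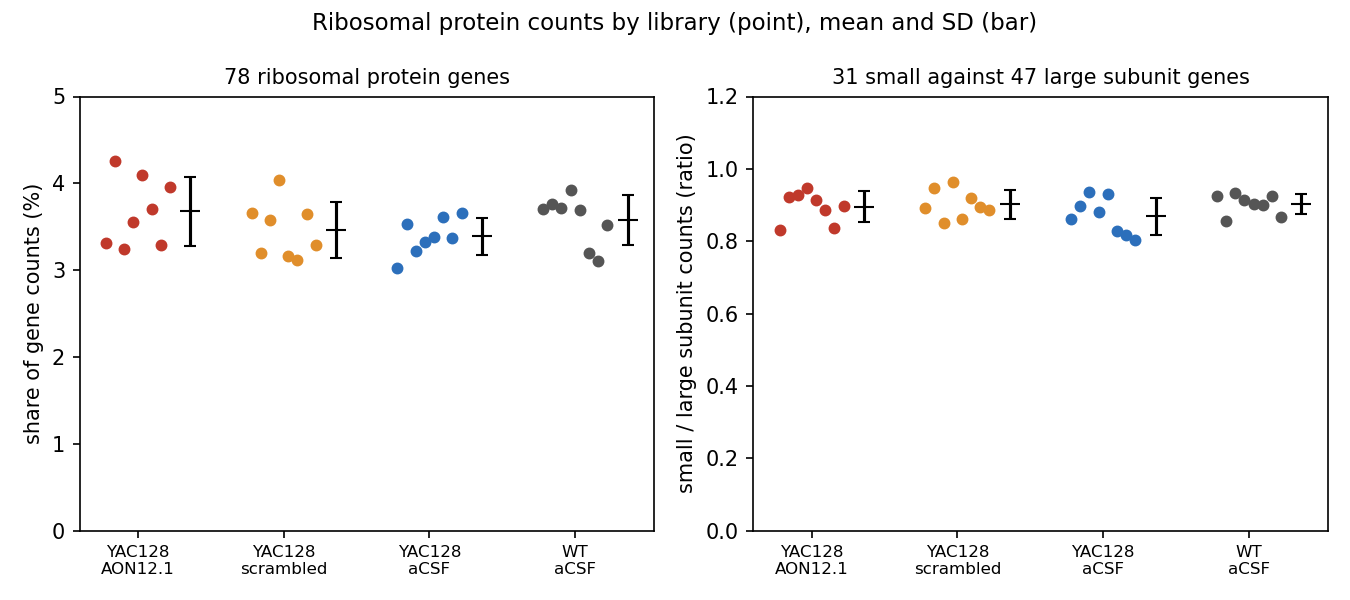
Share of gene counts in the 78 ribosomal protein genes (percent) and ratio of small to large subunit counts, 1 point per library, with group mean and SD. The mean share lies between 3.39% and 3.68%, the mean ratio between 0.869 and 0.903, and the 4 groups overlap on both axes.

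Gene by gene, 2 of the 78 members passed the test in any of the 6 comparisons: Rps26 in scrambled-treated YAC128 mice and Rpl4 in AON12.1-treated mice. The test was edgeR's quasi-likelihood test over 10679 genes with Benjamini-Hochberg adjustment, called at an adjusted p under 0.05, and fold changes below are on the log2 scale with their standard errors. The 6 comparisons share groups of mice, so their values are not independent of each other. Counts of members with a low unadjusted p in altered fits are given below without the share over all genes. They show how the counts move and are not read as results about the members. In no comparison did a member's 2 groups fail to overlap, and few of all tested genes did so: 0.0843% in YAC128 against WT with aCSF, 0.0843% in AON12.1 against scrambled, 0.187% in AON12.1 against aCSF, 0.0562% in scrambled against aCSF, 0.243% in AON12.1 against WT and 0.103% in scrambled against WT. With shares this small, the absence among 78 members is not read as a difference from other genes.

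The effect of the transgene was read from YAC128 mice with aCSF against WT mice with aCSF, and no ribosomal protein gene passed. Of all tested genes 8 did (0.0749%). Without adjustment, 11 of 78 members had p under 0.05 (14.1%), 1 of them higher and 10 lower in YAC128 mice, beside 12.5% of all genes in either direction, 6.79% higher and 5.76% lower. The 11 became 5 without YAC128 aCSF replicate 3 and 7 without YAC128 aCSF replicate 5 or WT replicate 2, 3, 4, 5 or 8. DESeq2 called 2 members, Rpl22l1 among them, of 54 called genes (0.506%), and limma voom called 0. The median member log2 fold change was -0.08, with -0.09 over the small and -0.08 over the large subunit, and 21 of 78 members were above 0. The median over all tested genes was -0.0036.

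Rpl28, of the large subunit, averaged 404 ± 35.3 CPM in YAC128 mice with aCSF and 484 ± 63.1 CPM in WT mice (SD, n = 8 each), or -0.26 ± 0.09 in log2 fold change (adjusted p = 0.207 by edgeR). Rpl14 had a log2 fold change of -0.26 ± 0.10 with an adjusted p of 0.290 in the same comparison.

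Rpl22l1 was the 1 member with a low unadjusted p in the other direction. It is the paralog of Rpl22, and both code for large subunit proteins. Its lowest, median and highest values were 189, 306 and 509 CPM in YAC128 mice with aCSF, against 170, 212 and 285 CPM in WT mice. The median of the YAC128 libraries lay above the highest WT library, and the ranges overlapped below that. The log2 fold change was 0.54 ± 0.15, which missed the threshold with an adjusted p of 0.150 in edgeR and passed it in DESeq2 with 0.0199. Rpl22l1 averaged 287 ± 60.3 CPM in AON12.1-treated and 296 ± 66.3 CPM in scrambled-treated mice (SD, n = 8 each). Against WT mice the log2 fold change was 0.38 ± 0.15 with AON12.1 (adjusted p = 0.229) and 0.42 ± 0.15 with the scrambled oligonucleotide (adjusted p = 0.329) in the edgeR fit. Rpl22 itself averaged 92.1 ± 8.70 CPM in YAC128 mice with aCSF and 89.1 ± 10.8 CPM in WT mice (SD, n = 8 each), or 0.05 ± 0.10 in log2 fold change (adjusted p = 0.897 by edgeR).

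AON12.1 against the scrambled oligonucleotide asks for an effect of the sequence, and no member passed. The 15 called genes made up 0.14% of those tested. Without adjustment 8 of 78 members had p under 0.05 (10.3%), beside 7.25% of all genes, and both DESeq2 and limma voom called 0 members. The 8 became 3 without AON12.1 replicate 2, with 38 of 78 members above 0, and 4 or 5 without AON12.1 replicate 4, 6 or 8 or scrambled replicate 6 or 8. They also became 3 when the counts of look-alike features, described further on, were added to each member. The median member log2 fold change was 0.03, with 0.01 over the small and 0.04 over the large subunit, and 47 of 78 members were above 0. Rpl10, a late-joining protein of the large subunit, averaged 210 ± 54.8 CPM in AON12.1-treated and 156 ± 49.0 CPM in scrambled-treated mice (SD, n = 8 each), or 0.43 ± 0.16 in log2 fold change (adjusted p = 0.519 by edgeR). With look-alike counts added the log2 fold change of Rpl10 was 0.17. Rps7 averaged 162 ± 23.1 CPM in AON12.1-treated and 134 ± 13.3 CPM in scrambled-treated mice (SD, n = 8 each). Rpl34 averaged 185 ± 29.1 CPM in AON12.1-treated and 157 ± 8.74 CPM in scrambled-treated mice (SD, n = 8 each), and neither gene passed. In the other direction Rpl37a averaged 86.0 ± 26.3 CPM in AON12.1-treated and 110 ± 22.9 CPM in scrambled-treated mice (SD, n = 8 each), or -0.35 ± 0.16 in log2 fold change (adjusted p = 0.670 by edgeR).

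AON12.1 against aCSF in YAC128 mice gave the most members with an unadjusted p under 0.05 among the 6 comparisons, and none passed. The 33 called genes made up 0.309% of those tested. Without adjustment 20 of 78 members had p under 0.05 (25.6%), beside 11.6% of all genes, and 18 of the 20 were higher with AON12.1 (23.1%, beside 6.53% of all genes). DESeq2 called 3 members, Rps26, Rps3 and Rpl4, of 90 called genes (0.843%), and limma voom called 0. Without AON12.1 replicate 2, 13 members had an unadjusted p under 0.05, 10 of them higher. Among mice whose animal number starts with 18 the median member log2 fold change was 0.29. Among those starting with 19, 41 of 78 members were above 0. The median member log2 fold change was 0.09, with 0.13 over the small and 0.09 over the large subunit, against a median near 0 over all genes, and 62 of 78 members were above 0.

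Rps3, at the mRNA entry side of the small subunit, had 594 CPM in the lowest, 709 in the median and 914 in the highest library with AON12.1, against 442, 570 and 689 CPM in YAC128 mice with aCSF. The groups overlapped between 594 and 689 CPM. The log2 fold change was 0.29 ± 0.09, with an adjusted p of 0.127 in edgeR and 0.0414 in DESeq2. Rps20 averaged 2996 ± 681 CPM with AON12.1 and 2397 ± 265 CPM with aCSF (SD, n = 8 each), or 0.32 ± 0.11 in log2 fold change (adjusted p = 0.223 by edgeR). Rpsa, a small subunit protein also known as the laminin receptor, averaged 515 ± 87.0 CPM with AON12.1 and 432 ± 60.6 CPM with aCSF (SD, n = 8 each). Rps14 had 216, 257 and 328 CPM in the lowest, median and highest library with AON12.1, against 146, 210 and 301 CPM with aCSF. Its groups overlapped, and the log2 fold change of 0.33 ± 0.11 had an adjusted p of 0.210 in edgeR.

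The stalk of the large subunit, which recruits elongation factors, is built from Rplp0, Rplp1 and Rplp2. Rplp1 had 2414, 3057 and 4263 CPM in the lowest, median and highest library with AON12.1, against 1959, 2408 and 3151 CPM in YAC128 mice with aCSF. The groups overlapped, and the log2 fold change of 0.37 ± 0.13 had an adjusted p of 0.234 in edgeR. For Rplp2 the difference was 0.22 ± 0.12 (adjusted p = 0.477) and for Rplp0 0.14 ± 0.10 (adjusted p = 0.626) in the same comparison and fit. In YAC128 mice with aCSF against WT mice the log2 fold changes were -0.29 ± 0.13 for Rplp1, -0.13 ± 0.12 for Rplp2 and -0.16 ± 0.10 for Rplp0, and none passed. Rps6, the small subunit protein that S6 kinases phosphorylate, averaged 11.6 ± 4.73 CPM with AON12.1, 12.8 ± 7.81 CPM with the scrambled oligonucleotide, 11.9 ± 3.14 CPM in YAC128 mice with aCSF and 13.2 ± 7.39 CPM in WT mice (SD, n = 8 each). These differences are smaller than the spread within each group.

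The scrambled oligonucleotide against aCSF in YAC128 mice had 1 called member, Rps26, which was higher. Of all tested genes 9 were called (0.0843%), all of them higher. Without adjustment 11 of 78 members had p under 0.05 (14.1%), beside 9.83% of all genes. The 11 became 3 to 7 without YAC128 aCSF replicate 2, 3 or 4 or scrambled replicate 1 or 7, and 5 with the share of counts outside features as a covariate. DESeq2 called 1 member, Rps26 (adjusted p = 0.00185), of 23 called genes (0.215%), and limma voom called 0. The median member log2 fold change was 0.07, with 0.10 over the small and 0.04 over the large subunit, and 58 of 78 members were above 0.

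Rps26 codes for a small subunit protein at the mRNA exit channel, and in humans its loss of function causes Diamond-Blackfan anaemia. It had 201 CPM in the lowest, 302 in the median and 423 in the highest library with the scrambled oligonucleotide, against 184, 207 and 246 CPM in YAC128 mice with aCSF. Of the 8 scrambled-treated libraries 6 lay above all YAC128 libraries with aCSF, and the other two fell within their range. The SD was 72.8 CPM with the scrambled oligonucleotide and 23.3 CPM with aCSF (n = 8 each). Rps26 was 1.40-fold higher (95% interval 1.22 to 1.62, log2 fold change 0.49 ± 0.10, adjusted p = 0.0443 by edgeR). With AON12.1 its values were 244.5, 288 and 308 CPM, 7 of 8 above all YAC128 libraries with aCSF, and the log2 fold change against them was 0.39 ± 0.10 with an adjusted p of 0.0889 in edgeR. AON12.1 against the scrambled oligonucleotide gave -0.10 ± 0.10 for Rps26 (adjusted p = 0.892 by edgeR).

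Rps26 in WT mice had 211 CPM in the lowest, 234 in the median and 250.2 in the highest library. Against these, the log2 fold change was 0.27 ± 0.10 with AON12.1 (adjusted p = 0.219) and 0.37 ± 0.10 with the scrambled oligonucleotide (adjusted p = 0.141) in the edgeR fit, and -0.12 ± 0.10 in YAC128 mice with aCSF (adjusted p = 0.694). The edgeR call of Rps26 with the scrambled oligonucleotide sits near the threshold. It held in 6 of 16 fits that each left out 1 mouse of the 2 groups, with adjusted p from 0.00370 to 0.131 and log2 fold changes from 0.40 to 0.56. It was lost without scrambled-treated replicate 1, 2, 6, 7 or 8 and without aCSF replicate 2, 3, 4, 6 or 7. When the counts of look-alike features were added to each member, the log2 fold change was 0.44 with an adjusted p of 0.0611. In the other direction Rps27a, which codes for a ubiquitin fused to a small subunit protein, averaged 888 ± 160.2 CPM with the scrambled oligonucleotide and 1144 ± 316 CPM with aCSF (SD, n = 8 each), or -0.37 ± 0.15 in log2 fold change (adjusted p = 0.419 by edgeR). With look-alike counts added this was -0.055.

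**Figure D2:**
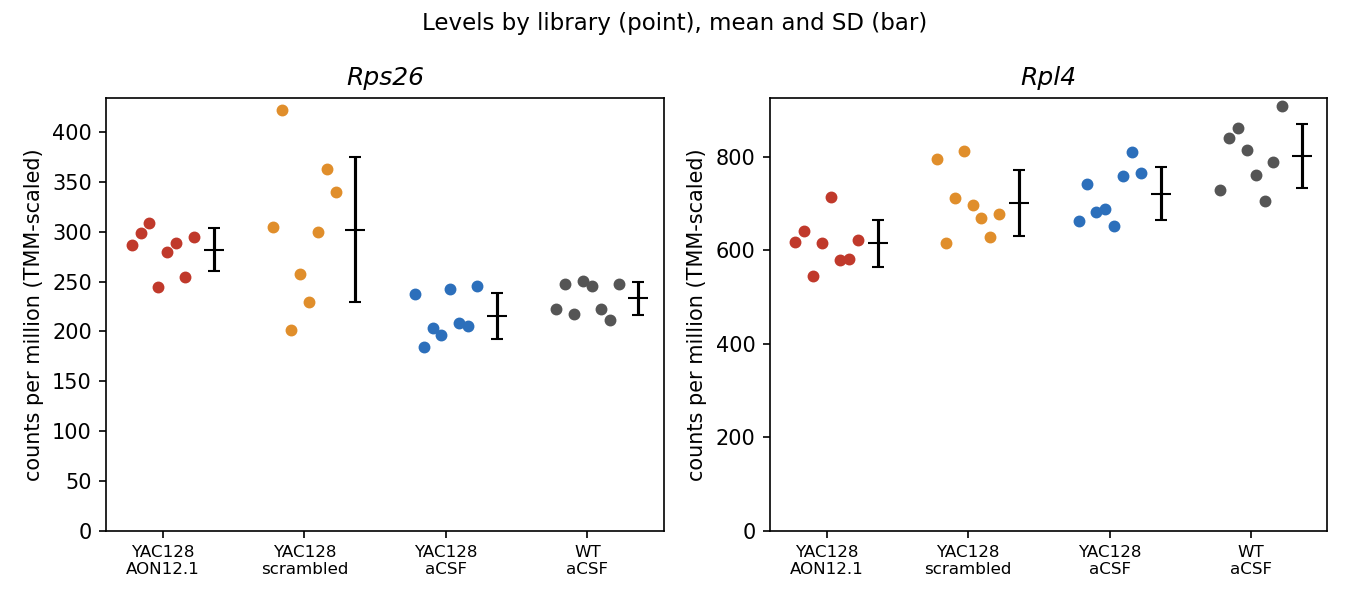
Level of Rps26 and Rpl4 in every library (CPM, 1 point per mouse), with group mean and SD. Rps26 averages 282 CPM with AON12.1, 302 CPM with the scrambled oligonucleotide, 215 CPM in YAC128 mice with aCSF and 233 CPM in WT mice, and Rpl4 averages 615 CPM with AON12.1 and 801 CPM in WT mice.

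AON12.1-treated YAC128 mice against WT mice with aCSF differ in genotype and in treatment at once. The 1 called member was Rpl4, which was lower. Over all genes, 60 were called (0.562%), 35 of them lower (0.328%). Without adjustment 9 of 78 members had p under 0.05 (11.5%), beside 14.5% of all genes. The median member log2 fold change was 0.04, with 0.05 over the small and 0.02 over the large subunit.

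Rpl4 codes for a large subunit protein that lines the exit tunnel of the growing peptide. It had 546 CPM in the lowest, 617 in the median and 715 in the highest library with AON12.1, against 706, 802 and 908 CPM in WT mice. The groups overlapped by 1 library of each, between 706 and 715 CPM. Rpl4 reached 0.767 of its WT level (95% interval 0.692 to 0.851, log2 fold change -0.38 ± 0.07, adjusted p = 0.00479 by edgeR). The call held in all 16 fits that each left out 1 mouse of the 2 groups, with adjusted p from 0.00265 to 0.0154, and in limma voom and DESeq2.

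The other groups lay between these values for Rpl4. It had 615, 687 and 813 CPM in the lowest, median and highest library with the scrambled oligonucleotide and 653, 716 and 812 CPM in YAC128 mice with aCSF. Against WT mice, the log2 fold change was -0.19 ± 0.07 with the scrambled oligonucleotide (adjusted p = 0.376) and -0.15 ± 0.07 in YAC128 mice with aCSF (adjusted p = 0.392) in the edgeR fit. AON12.1 gave -0.19 ± 0.07 against the scrambled oligonucleotide (adjusted p = 0.525) and -0.23 ± 0.07 against aCSF in YAC128 mice (adjusted p = 0.175), while DESeq2 called Rpl4 in AON12.1 against aCSF with an adjusted p of 0.0398. Rpl39, a small protein of the same tunnel, averaged 71.7 ± 19.6 CPM with AON12.1 and 54.4 ± 7.60 CPM in WT mice (SD, n = 8 each), or 0.39 ± 0.14 in log2 fold change (adjusted p = 0.180 by edgeR). That AON12.1 mean includes 1 library at 116 CPM.

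The scrambled oligonucleotide in YAC128 mice against WT mice with aCSF gave no called member. Over all genes, 18 were called (0.169%). Without adjustment 7 of 78 members had p under 0.05 (8.97%), beside 9.80% of all genes, and both DESeq2 and limma voom called 0 members. The 7 became 13 without scrambled replicate 4. The median member log2 fold change was -0.01, with 0.01 over the small and -0.04 over the large subunit. Rps14 averaged 266 ± 24.9 CPM with the scrambled oligonucleotide and 214 ± 28.1 CPM in WT mice (SD, n = 8 each), or 0.31 ± 0.11 in log2 fold change (adjusted p = 0.358 by edgeR). Without scrambled-treated replicate 3, Rps26 was called here as well, with a log2 fold change of 0.45 and an adjusted p of 0.0263.

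For each gene by itself, the fits also bound how large a difference in its counts could have been missed. These intervals are not joint over genes, and they do not cover how reads were placed between members and look-alikes. In 5 of the 6 comparisons the 95% intervals of all 78 members lay within a 2-fold change in either direction, and in AON12.1 against WT 77 of 78 did. Within a 1.5-fold change lay 70 to 74 of the 78, depending on the comparison. The member outside the 2-fold bound was Rpl35, described further on.

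**Figure D3:**
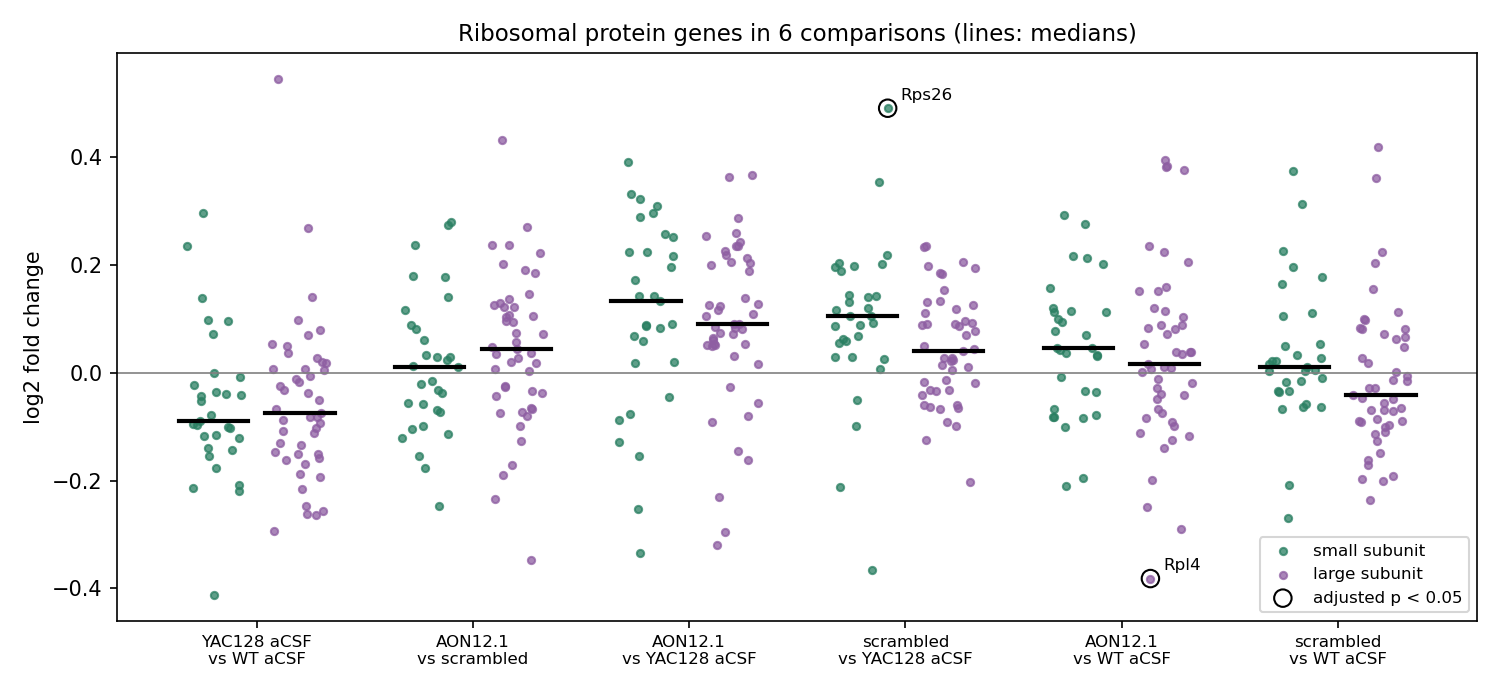
Log2 fold change of each of the 78 members in the 6 comparisons, small and large subunit apart, with the median as a line. Medians lie between -0.09 and 0.13, and Rps26 and Rpl4 are marked where they were called.

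Several members are paralogs of another ribosomal protein gene, and in none of these pairs was a gene called by edgeR in any of the 6 comparisons, while DESeq2 called Rpl22l1 as given above. Rps27l and Rps27 code for near-identical small subunit proteins. Rps27l averaged 24.5 ± 5.17 CPM in YAC128 mice with aCSF and 22.2 ± 4.30 CPM in WT mice, and Rps27 averaged 108 ± 21.4 CPM in YAC128 mice with aCSF and 108 ± 14.9 CPM in WT mice (SD, n = 8 each). Rpl7l1 averaged 32.2 ± 7.79 CPM in YAC128 mice with aCSF and 33.1 ± 6.19 CPM in WT mice (SD, n = 8 each), and for Rpl7 the log2 fold change was -0.11 ± 0.09 (adjusted p = 0.652 by edgeR). In that comparison the X-linked Rps4x had 0.10 ± 0.13 and Rpl3 had -0.01 ± 0.09 on the log2 scale (adjusted p = 0.816 and 0.991 by edgeR). Their tissue-restricted relatives Rpl3l, Rpl10l and Rpl39l had 0 to 1 counts in every library and were not tested.

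Within groups, the members tended to vary together. After the group means were taken out, the 3003 pairs of members had a median Pearson correlation of 0.203 over the 32 libraries, and 74.5% of pairs were positive. The median was 0.205 within the small subunit, 0.204 within the large subunit and 0.201 between them. Over all pairs of tested genes it was -0.002. The members that followed the mean of the other members most closely were Rps9 (0.763), Rpl32 (0.757) and Rps2 (0.712). Rps27l (-0.291) and Rpl35 (-0.267) ran against it. All pairs share the same libraries, their depth and their scaling, so these correlations are a description. The pairs were also not matched for level: the median level was 255 CPM over the members and 37.9 CPM over all tested genes.

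Members also varied with the share of counts outside any feature. In a fit with the group and this share, 6 of 78 members were called (7.69%), all lower in libraries with a larger share. Of all tested genes 14.6% were called, and 5.08% were called lower. Per 10 percentage points of that share, the log2 slope was -0.27 ± 0.07 for Rpl7a (adjusted p = 0.00586 by edgeR), -0.21 ± 0.06 for Rps2 (0.0177), -0.28 ± 0.09 for Rpl23 (0.0300), -0.22 ± 0.07 for Rps13 (0.0384), -0.21 ± 0.07 for Rpl12 (0.0444) and -0.20 ± 0.07 for Rpl29 (0.0466). Rps2 lies at the mRNA entry of the small subunit, and Rpl12 lies at the base of the stalk. The median member slope was -0.11, against -0.02 over all tested genes, and 65 of 78 members had a slope under 0. It was -0.10 over the small and -0.12 over the large subunit.

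**Figure D4:**
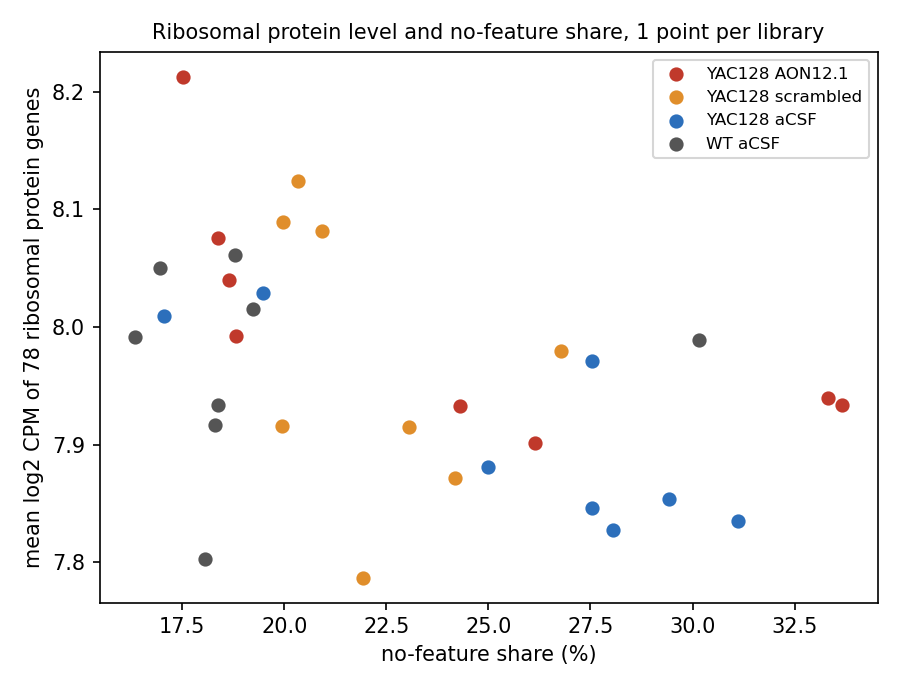
Mean log2 CPM of the 78 members in each library against the share of its counts outside any feature (percent), 1 point per library, coloured by group. Libraries with a larger share tend to have a lower member mean, and the share runs from 16.3% to 33.7%.

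The share of counts outside features was not even over the groups, nor over the animals' number series, which starts with 18 or 19 in the labels. Among YAC128 mice with aCSF it was 29.0% ± 1.60 in the 4 mice of series 18 and 22.3% ± 4.84 in the 4 mice of series 19 (SD). With the scrambled oligonucleotide it was 22.3% in the 2 mice of series 18 and 22.1% ± 2.58 in the 6 mice of series 19 (SD). With AON12.1 it was 18.2% in the 2 mice of series 18 and 25.7% ± 6.74 in the 6 mice of series 19 (SD), and in WT mice it ran from 17.0% to 30.2% in 3 mice of series 18 and 18.1% ± 1.06 in 5 mice of series 19 (SD). With the animal number series added to the groups in 1 fit, no member was called by edgeR between series 19 and 18, while 1 gene of all those tested was (0.00936%), and 2 members had an unadjusted p under 0.05 (2.56%, beside 5.48% of all genes). limma voom called 0 genes. The median member fold changes of the comparisons differed between the series. For YAC128 against WT mice with aCSF the median log2 fold change was -0.21 within series 18 and 0.026 within series 19, and -0.00473 with the share as a covariate. For AON12.1 against aCSF it was 0.29 within series 18, 0.00761 within series 19 and 0.08 with the covariate. The part of this share in the group differences was not tested beyond these values.

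Within series 18, with 2 AON12.1-treated mice against 4 with aCSF, 6 members were called higher. They were Rps14 (log2 fold change 0.74), Rpsa (0.61), Rps2 (0.58), Rpl9 (0.75), Rps7 (0.71) and Rpl7a (0.62), with adjusted p from 0.0352 to 0.0496 in edgeR. Over all genes 276 were called in that fit. Their share of the genes tested is not given here, so the 6 calls are not read as a result about the members. Within series 19 no member was called in that comparison, among 2 called genes. For Rps26, the scrambled oligonucleotide against aCSF gave 0.83 on the log2 scale within series 18 (adjusted p = 0.150) and 0.32 within series 19 (adjusted p = 0.873) in edgeR. Rpl4 with AON12.1 against WT was alike in both, at -0.35 within series 18 (adjusted p = 0.478) and -0.38 within series 19 (adjusted p = 0.0789) in edgeR. With the share as a covariate Rpl4 stayed called, at -0.33 with an adjusted p of 0.0202, and Rps26 with the scrambled oligonucleotide had a log2 fold change of 0.46 with an adjusted p of 0.0985.

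Ribosomal protein genes have many processed copies in the mouse genome, and those copies bear on the counts. In the last 300 bases of the annotated transcripts, 53 of the 78 members shared at least 1 stretch of 50 bases with another feature. Features holding at least 20% of a member's stretches are called look-alikes here. Of the members, 40 had such features and 38, Rpl4 and Rpl39 among them, had none. Having none under this rule does not mean that a member has no copies. Rpl39 shared 21.1% of its stretches with 6 features, none of which reached 20% by itself. Rpl13a, Rpl28, Rpl14 and Rpsa are also among the 38. In that order, their pseudogene-named features summed to 1138, 499.5, 189 and 328 mean counts per library, beside 202, 416, 243 and 453 at the members. Rpl4 had no feature named in this way. In all, 239 features were look-alikes, 196 of them with counts. They held 488762 counts beside 1079745 at the members, or 45.2 ± 2.96 per 100 member counts with AON12.1, 45.8 ± 5.45 with the scrambled oligonucleotide, 43.8 ± 3.17 in YAC128 mice with aCSF and 46.6 ± 2.53 in WT mice (SD, n = 8 each). For 17 members the look-alikes held more counts than the member did. For Rps6 they held 92.0% of the joint counts, with 3444 counts at Rps6-ps4 beside 373 at Rps6. For Rpl10a they held 84.4% and for Rpl10 77.6%. For other members with results above, they held 55.5% for Rps27, 52.5% for Rpl3, 48.0% for Rpl7a, 47.8% for Rps27a, 44.2% for Rps2, 41.6% for Rplp1, 40.1% for Rps14, 38.9% for Rpl7, 32.1% for Rpl34, 31.6% for Rps26, 30.2% for Rpl22l1 and 20.7% for Rpl29. The values of these members are uncertain, since the sources used here do not say how reads that fit both were counted. Whether this also holds for members with no look-alike under the rule was not tested. The look-alike totals leave out copies outside the rule.

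Rpl35, a large subunit protein near the exit of the peptide tunnel, had the widest spread between libraries. Its biological coefficient of variation in edgeR was 0.474, the highest among the members, whose median was 0.144 and whose lowest was 0.0926, for Rpl30. Gm2000, annotated as protein coding on chromosome 1, is its leading look-alike and was chosen for description after its values were seen. Rpl35 lies on chromosome 2, and over the last 300 bases the 2 annotated transcripts differ at 1 base. Rpl35 had 3309 counts in all libraries and Gm2000 had 7989. Of their joint count Rpl35 took 7.19% to 14.7% in 12 libraries and 30.1% to 51.6% in the other 20, with no library between. The 12 libraries were 2 of 8 with AON12.1, 3 of 8 with the scrambled oligonucleotide, 3 of 8 of the YAC128 mice with aCSF and 4 of 8 of the WT mice. By number series they were 3 of 11 mice in series 18 and 9 of 21 in series 19. What divides the libraries was not tested, so the level of Rpl35 cannot be read without that of Gm2000.

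Across libraries the 2 features ran against each other. On the log2 scale, with group means left in, the correlation of Rpl35 and Gm2000 was -0.865 over 32 libraries. Among 37 pairs of a member and its leading look-alike the median correlation was 0.398, 7 pairs were under 0, the next lowest was -0.371 and the highest was 0.892, for Rplp1 and Gm10073. The coefficient of variation over libraries was 47.8% for Rpl35, 37.5% for Gm2000 and 16.8% for their sum in CPM of all gene counts, and the sum ranged from 278 to 502 CPM. No group difference of Rpl35 passed, with a log2 fold change of 0.38 ± 0.34 for AON12.1 against WT (adjusted p = 0.649 by edgeR).

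**Figure D5:**
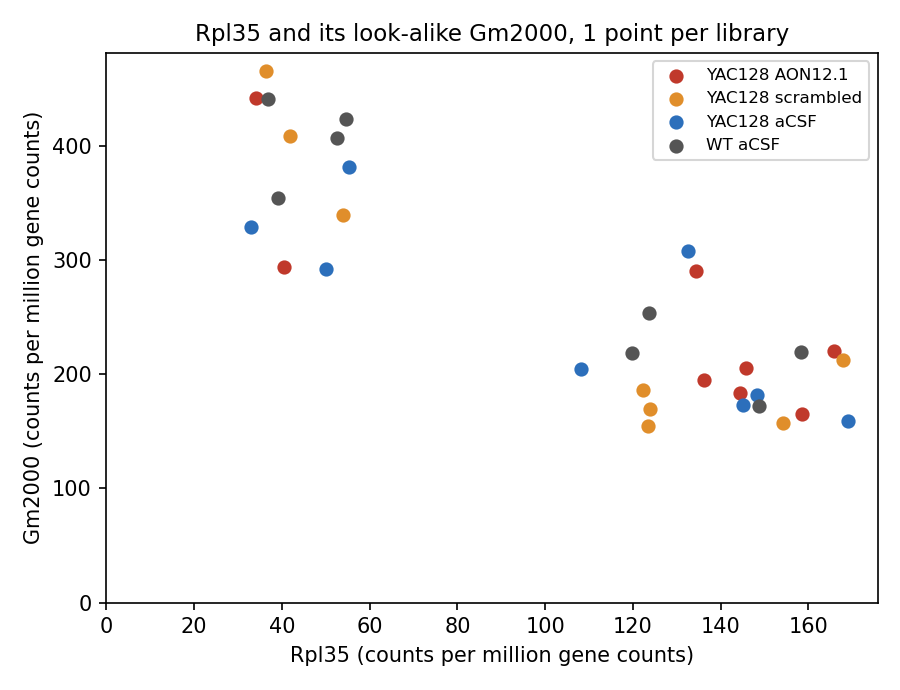
CPM of all gene counts for Rpl35 (horizontal axis) and Gm2000 (vertical axis) in each library, coloured by group. The points form 2 sets, 12 libraries with Rpl35 at 7.19% to 14.7% of the joint count and 20 with 30.1% to 51.6%, and every group has libraries in both.

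Genes outside the member list that make, regulate or work beside cytosolic ribosomes gave few calls in the 6 comparisons. Of 39 translation factors, 42 tested ribosome biogenesis genes, 14 tested genes of mTORC1 and La-related regulation and 3 tested subunit components outside the naming rule, none was called in any of the 6 comparisons by edgeR's quasi-likelihood test. Of 75 tested mitochondrial ribosomal protein genes, which belong to the separate ribosome of mitochondria, 1 was called in 1 comparison. Mrpl17 fell to 94.9 ± 14.4 CPM with AON12.1, against 124 ± 13.4 CPM in WT mice (SD, n = 8 each), or -0.38 ± 0.09 in log2 fold change (adjusted p = 0.0297 by edgeR).

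The median log2 fold change between YAC128 and WT mice with aCSF was -0.12 over the mitochondrial ribosomal proteins, with 57 of 75 under 0, and -0.08 over the translation factors, with 32 of 39 under 0. It was 0.01 over the biogenesis genes. With the share of counts outside features, 5 of 75 mitochondrial ribosomal proteins (6.67%) and 7 of 39 translation factors (17.9%) were called lower, beside 5.08% of all tested genes. In the same fit 3 of 42 biogenesis genes were called higher (7.14%) and 1 lower, and 3 of 14 regulators, Rps6kb1, Rps6kb2 and Tsc1, were called higher (21.4%), beside 9.49% of all tested genes. The first 2 of these code for S6 kinases and Tsc1 codes for an inhibitor of mTORC1.

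Markers of other cells also varied beside the members. All 11 striatal projection neuron markers were lower in YAC128 mice with aCSF than in WT mice, with a median log2 fold change of -0.27, and Adora2a and Penk were called. With AON12.1 all 11 were higher than with aCSF in YAC128 mice (median 0.43) and than with the scrambled oligonucleotide (median 0.40). With the scrambled oligonucleotide 9 of 11 were higher than with aCSF in YAC128 mice (median 0.14). None was called in these 3 comparisons. Cortical excitatory markers, from tissue next to the striatum, summed to 14.4 to 1039 CPM over all libraries, and all 3 tested ones were called lower with the share of counts outside features. Choroid plexus markers reached 3841 CPM in 1 YAC128 library with aCSF and 360 CPM at most in the AON12.1 group, 200.1 CPM at most in the scrambled group and 225 CPM at most in WT mice. Astrocyte markers had 1 call (Gfap, higher with AON12.1 than with aCSF), microglial markers 2 (C1qa, higher with the scrambled oligonucleotide against both groups with aCSF) and oligodendrocyte markers 1 (Mobp, lower with AON12.1 than in WT mice), while endothelial and oligodendrocyte precursor markers had none. No gene of these marker lists was at 0 in a whole group. The part of cell makeup in the members' values was not tested.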

How the data were processed

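Whole-number counts per gene were deposited, 1 file per mouse, not normalized by the authors. The submitters' processing notes name GRCm39 and, beside FastQC, the tools STAR 2.7.5a, HTSeq 0.12.4 and cutadapt 2.10. Whether molecular identifiers were collapsed, whether strand was used and how reads fitting several places were treated are not given in the sources used here. Library sizes and tests leave out the 5 summary lines: a mean of 22.8% of all counts lay outside features and 8.80% aligned more than once.

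Names, biotypes and transcripts came from GENCODE M21 (GRCm38), matched by identifier for 52133 of 55415 features, and promoter sequences from RefSeq (GRCm38.p6).

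Counts were tested in R 4.3.3 with edgeR 4.0.16: filterByExpr (minimum count 10, minimum total 15), TMM scaling, and 1 quasi-likelihood fit of 4 groups and 32 mice. CPM are TMM-scaled unless called CPM of all gene counts. DESeq2 1.42.0 and limma 3.58.1 (voom) were alternatives. The scripts were checked on simulated counts. Each library is a separately numbered mouse, so p-values measure the spread between mice. Depth limits mainly Rps6.

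Members and gene lists were chosen with earlier results of these data known. Named members (46) were those called, the 3 with the smallest p in each direction of each comparison or covariate, those with extreme levels or dispersion, paralogs, stalk genes, Rpsa, Rps6 and Rps27a. Members named for a high or low shared correlation, for their look-alikes or for a call in an alternative were chosen after their values were seen. Of the named members, 1 is not reported here.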

Additional observations from a re-analysis of the deposited data

Results flagged for a closer look

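Single libraries stood apart from the other 7 of their group in 10 of 196 groups of 8 values tested, where chance gives about 1 in 20. With AON12.1, Rpl39 had 116 CPM in replicate 3, Rpl8 had 1017 CPM in replicate 5, Rps16 had 129 CPM in replicate 8 and Rps3 had 914 CPM in replicate 2, each the highest of its group. With the scrambled oligonucleotide, Rpl34 was highest in replicate 1 at 177 CPM and Rpl7a was lowest in replicate 5 at 231 CPM. In YAC128 mice with aCSF, Rpl10 was highest in replicate 4 at 265 CPM. In WT mice, Rpl27a was highest in replicate 2 at 115 CPM and Rpl7a in replicate 4 at 359 CPM. The share of counts outside any feature was 30.2% in WT replicate 1, while the next WT library had 19.2%.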

How the results depend on the processing

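No paired analysis was possible because the groups share no animal numbers. Members called in YAC128 against WT with aCSF were 2 in DESeq2. In AON12.1 against aCSF they were 3 in DESeq2 and 6 within series 18. The call of Rps26 with the scrambled oligonucleotide against aCSF was lost, leaving 0 members, in limma voom, with the number series or the share outside features as a covariate, with look-alike counts added, with only the 2 groups, and within series 18, series 19 or the libraries with a share up to 25%. Rpl4 in AON12.1 against WT was lost, leaving 0 members, in those last 3 subsets, which hold fewer mice. Series, share-limited and look-alike fits were added after seeing the data. Leaving out 1 mouse gave 0 to 1 called members for scrambled against aCSF and for scrambled against WT. Median log2 fold changes moved to -0.21 and 0.026 for YAC128 against WT within series 18 and 19, and to 0.29 for AON12.1 against aCSF within series 18. The subunit ratio without the top member of each subunit was 0.841 with AON12.1, 0.819 with scrambled, 0.797 with aCSF in YAC128 mice and 0.806 in WT mice. Log2 fold changes changed sign within series 18 for Rpl15 in AON12.1 against scrambled (0.29), Rpl19 in scrambled against aCSF (0.026) and Rpl22l1 in AON12.1 against WT (-0.000683). The cause of these changes was not tested.

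Leaving out 1 mouse moved the median from -0.09 to -0.05 for YAC128 against WT, -0.00177 to 0.05 for AON12.1 against scrambled, 0.07 to 0.11 for AON12.1 against aCSF, 0.04 to 0.09 for scrambled against aCSF, -0.00832 to 0.06 for AON12.1 against WT and -0.03 to 0.01 for scrambled against WT. Over all genes, calls in YAC128 against WT were 8, but 54 in DESeq2, 21 without a filter, 5 with scaling that left out the members, 4 with the share as a covariate, 2 within either series, 1 with a share up to 25%, 142 without WT replicate 1 (the library with a 30.2% share), 27 without YAC128 aCSF replicate 8 and as few as 3 without other mice. AON12.1 against scrambled gave 15, but 7 with only the 2 groups, 1 and 5 within series 18 and 19 and 8 with a share up to 25%. AON12.1 against aCSF gave 33, but 90 in DESeq2, 57 without a filter, 276 and 2 within the series, 6 with a share up to 25%, 61 without AON12.1 replicate 7 and 73 without aCSF replicate 8. Scrambled against aCSF gave 9, but 23 in DESeq2, 14 without a filter, 5 with look-alikes added, with only the 2 groups or with the series covariate, 1 in each subset and 3 to 13 without 1 mouse. AON12.1 against WT gave 60, but 104 in DESeq2, 3 and 26 within the series, 33 with a share up to 25% and 97 without AON12.1 replicate 5. Scrambled against WT gave 18, but 39 in DESeq2, 33 without a filter, 28 with the share as a covariate, 3 and 4 within the series and 10 to 27 without 1 mouse. Of the other alternatives, 400 kept a whole-list result within its spread or count limit and 1013 kept a named member's direction and call, while 21 lost and 7 gained a call.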

Other observations

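Some ribosomal protein pseudogenes took nearly all their counts from 1 mouse. Of 106 pseudogene features with at least 32 counts in total, 7 (6.60%) had over 50% of them in 1 library, beside 28 of 15725 features of all kinds (0.178%) and 0 of the 78 members. Rpl36-ps3 had 111 of its 116 counts in YAC128 aCSF replicate 4, and Rps12-ps3 had 47 of 51 in AON12.1 replicate 4. Rps12-ps22 had 68 of 87 in AON12.1 replicate 8, Rps3a3 had 50 of 75 in AON12.1 replicate 1 and Rpl21-ps15 had 43 of 50 in WT replicate 4.

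Coding members of the naming rule that stayed under the count minimum showed related patterns. Rpl24 had 108 of its 134 counts in YAC128 aCSF replicate 7. Rps10 averaged 5.81 counts per library, while 4 features named as its pseudogenes averaged 248 counts together.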
